A study of Drosophila melanogaster with 4 samples.

Results

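The heterochromatin scaffold 3LHet carried 258 enriched clusters of the chromosomal protein Su(var)3-7 among the 11471 clusters of the replicate-set list. They were taken as every row of that list placed on the sequence 3LHet of FlyBase release 5, so position and not value picked them from the list. Each row of the list is itself a region of significant enrichment, so all values given here had already passed the authors' calling. The 2 replicate lists held 280 and 270 clusters on 3LHet, of 5994 and 5617 in all, and gave the support by replicate. Chromatin immunoprecipitation and sequencing (ChIP-seq) had been carried out with the antibody Q3448 on crosslinked nuclei of wild-type Oregon-R third-instar larvae, in 2 ChIP libraries. Each had its own input library (non-immunoprecipitated DNA) of the same strain and stage, so that all 4 libraries shared the wild-type genotype; no list of the inputs alone was analysed here. The larval tissues were homogenised together, so each value is an average over the cells of the preparation. Whether the 2 replicates stand for separate collections of larvae is not stated, and an SD over them may be technical. The read depth behind the lists is unknown, because they hold no counts.

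Su(var)3-7 is a zinc-finger protein that binds DNA and the heterochromatin protein HP1. Loss of either partner weakens the silencing of a gene placed next to heterochromatin, known as position-effect variegation. 3LHet is sequence from the pericentric heterochromatin of the left arm of chromosome 3, which release 5 keeps apart from the assembled arm 3L. Such sequence is rich in transposon remnants and other repeats, and genes lie scattered within it. HP1 and methylated histone H3 lysine 9 are its best-known marks.

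Most of 3LHet lay under Su(var)3-7 clusters. In the replicate-set list 1.94 Mb of the 2.56 Mb scaffold was covered (76.1%), and the replicate lists covered 63.6% ± 3.43 (SD, n = 2), with 61.2% in replicate 1 and 66.1% in replicate 2. With 1.83% of the length of the 13 sequences that had clusters, 3LHet held 5.73% of all bases under clusters in the replicate-set list, 7.85% in replicate 1 and 8.92% in replicate 2. Each cluster carries a single value deposited by the authors, read here as the log2 enrichment of ChIP over input (the scale was inferred from the values), so that 1 means 2-fold. The median of the 258 clusters was 1.15, or 2.22-fold, with quartiles of 0.85 and 1.48. Over all clusters of the replicate-set list the median was 0.46, or 1.38-fold. In the replicates the 3LHet medians were 1.16 and 1.29, and those of all clusters 0.70 and 0.73. Of the 258 clusters 161 (62.4%) had a log2 enrichment of 1 or more, against a background of 15.3% over all clusters of the list.

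The clusters on 3LHet were also wide. Their median width was 4859 bp, with quartiles of 2383 and 9402.75 bp, against 1846 bp over all clusters of the replicate-set list. In replicates 1 and 2 the 3LHet medians were 3617 and 4097.5 bp, against 2090 and 2075 bp over all clusters. Clusters of 10 kb or more numbered 60 of the 258 (23.3%), where the background over all clusters was 3.75%. These 60 clusters held 58.4% of the covered bases of the scaffold. Among other heterochromatin scaffolds, such wide clusters made up 22.9% of those on 2LHet, 21.3% on 2RHet and 12.6% on 3RHet in the replicate-set list. On XHet and YHet they made up 3.23% and 0%. In replicates 1 and 2 the share was 12.5% and 18.1% on 3LHet, 11.1% and 15.5% on 2RHet and 7.32% and 10.8% on 2LHet. A share near that of 3LHet was thus also found on 2RHet. On 2LHet it was near only in the replicate-set list, where it rested on 8 of 35 clusters.

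Of the 258 clusters, 189 (73.3%; 95% exact binomial interval 67.4 to 78.6%, counting error only) were overlapped by at least 1 bp of a cluster of both replicates. The background for the same rule over all clusters of the list was 30.7%. Another 19 clusters (7.36%) were found in replicate 2 only and 5 (1.94%) in replicate 1 only. The remaining 45 (17.4%) were found in neither, against a background of 44.1%. The 189 clusters found in both held 1826 kb, or 93.9% of the covered bases, at a median width of 6852 bp. Those in neither replicate held 63.1 kb (3.25%) at a median width of 1203 bp. Both kinds of list rest on the same ChIP libraries, and the shares are therefore a description and no independent check of the clusters. An overlap of 1 bp is also reached more easily by wide clusters on a largely covered scaffold. The part of width and cover in the difference from the background was not tested.

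**Figure D1:**
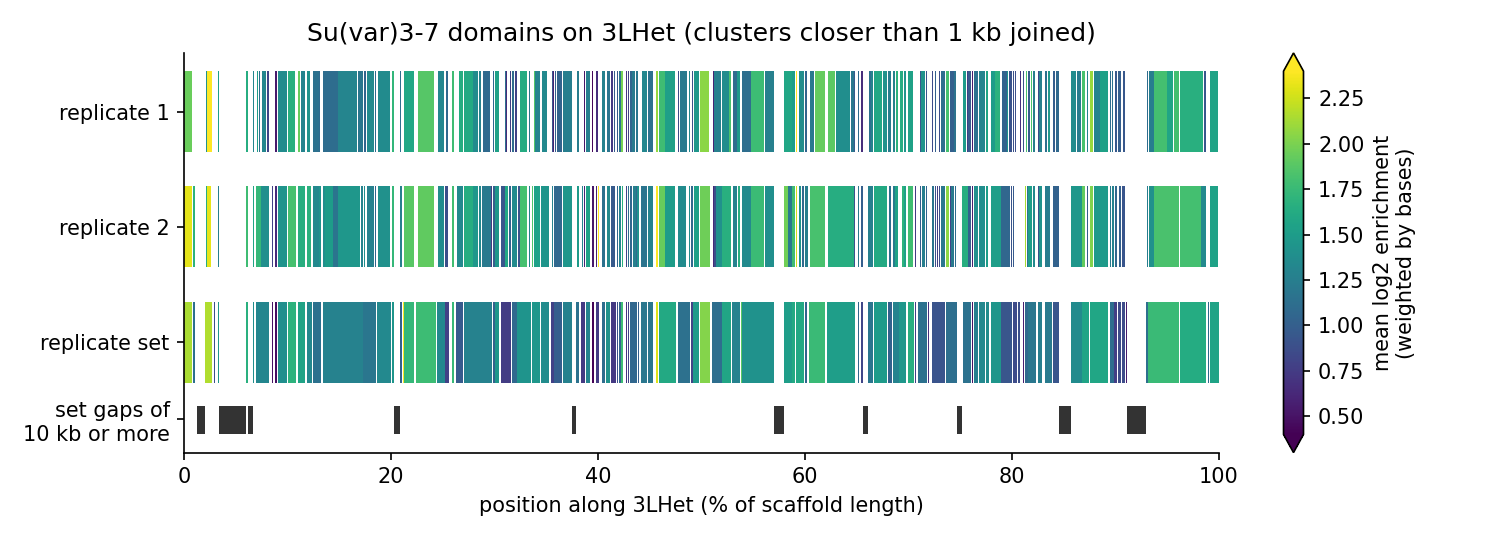
Domains of Su(var)3-7 along 3LHet in each list, after clusters closer than 1 kb were joined; colour gives the mean log2 enrichment weighted by bases, and black bars mark the 11 gaps of 10 kb or more in the replicate-set list. Apart from narrow clusters of the replicate-set list, all 3 lists leave the same long stretches empty, near the left end and at 57.5%, 85.1% and 92.0% of the scaffold length.

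When clusters separated by less than 1 kb were joined, the 258 clusters made 122 domains. Their median length was 11014.5 bp, and 35 domains of 20 kb or more spanned 50.1% of the scaffold. In replicate 1 there were 176 domains, of which 19 reached 20 kb and spanned 21.6% of 3LHet. In replicate 2 there were 165 domains, of which 25 reached 20 kb and spanned 30.4%. The domains were thus longer in the replicate-set list than in either library alone.

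The longest domain, 3LHet 342715 to 440859, spanned 98.1 kb with 5 clusters at a mean log2 enrichment of 1.28 weighted by bases. Clusters covered 91.5% of it in replicate 1, at a mean of 1.22, and 92.8% in replicate 2, at 1.42. It was followed by 3LHet 1377541 to 1456951, with 79.4 kb in 6 clusters at 1.42, and by 3LHet 2381145 to 2458224, with 77.1 kb in 4 clusters at 1.75. The next, 3LHet 690642 to 759964, was more broken: its 69.3 kb were made up of 9 clusters with log2 values between 0.48 and 2.11, and were 72.7% and 81.8% covered in replicates 1 and 2. The fifth, 3LHet 1588688 to 1657191, spanned 68.5 kb in 4 clusters at 1.51 and was 90.2% and 95.7% covered.

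Among single clusters the widest was 3LHet 2396181 to 2452784, at 56.6 kb and a log2 enrichment of 1.96. It lay near the right end and was made up of 8 clusters in replicate 1, at a mean of 1.85, and 5 in replicate 2, at 1.93. The next was 3LHet 379649 to 434609, with 54961 bp at 1.33 (1.30 in replicate 1 and 1.46 in replicate 2), and the one after it 3LHet 576321 to 618730, with 42.4 kb at 1.90 (1.88 and 1.91). The remaining 7 of the 10 widest were 24.8 to 37.1 kb wide, and their log2 values ran between 1.27 and 1.99. At least 87.1% of each of the 10 was covered in replicate 1 and at least 85.9% in replicate 2. Together they made up 18.7% of the covered bases, and 6 of them lay beyond the middle of the scaffold.

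The strongest site found in both replicates was 3LHet 57193 to 67562, with a log2 enrichment of 2.45, or 5.47-fold, over 10.4 kb. Its values were 2.58 in replicate 1 and 2.33 in replicate 2. The second, 3LHet 1510135 to 1514717, had 2.42 over 4.58 kb, with 2.57 in replicate 1 and 2.25 in replicate 2. The third, 3LHet 1165012 to 1168995, had 2.30 over 3.98 kb, with 2.09 and 2.60. The replicate difference, replicate 2 minus replicate 1, was -0.25, -0.31 and 0.52 at these 3 sites, each larger than the distances between their values in the replicate-set list, so their order is not settled by these data.

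The first cluster of the scaffold, 3LHet 3 to 19432, was the fourth highest, at 2.15 over 19.4 kb, with 1.94 in replicate 1 and 2.32 in replicate 2. The fifth was 3LHet 2236488 to 2245698, at 2.04 over 9.21 kb, with 2.09 and 2.02. The next 5 were wide: 3LHet 1555681 to 1583414 (27.7 kb, 1.99), 3LHet 1273818 to 1298594 (24.8 kb, 1.99), the widest cluster of the scaffold (1.96), 3LHet 1400597 to 1424977 (24.4 kb, 1.95) and 3LHet 576321 to 618730 (1.90). The replicates lay close together in these 5, the widest difference, replicate 2 minus replicate 1, being -0.097 at 3LHet 1273818 to 1298594. The lowest value of the scaffold, picked out after the values were seen, was 0.28 at 3LHet 1007611 to 1009423, with 0.43 in replicate 1 and 0.41 in replicate 2. The last cluster, 3LHet 2533189 to 2555191, ended 300 bp short of the end of the scaffold and had 1.56 in the replicate-set list, 1.56 in replicate 1 and 1.55 in replicate 2.

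Some clusters of the replicate-set list held several replicate clusters, counted by an overlap of at least 1 bp, but most held 1 or none. In replicate 1, 132 of the 258 held a single cluster, 46 held 2, 12 held 3 and 4 held 4 or more, while 64 held none. In replicate 2, 158 held a single cluster, 38 held 2, 9 held 3, 3 held 4 or more and 50 held none. The clusters that held more were wider, with median widths of 4935.5 bp for 1, 9946.5 bp for 2 and 16357 bp for 3 clusters of replicate 1. A wide cluster can overlap more replicate clusters, so this relation is a description only. Among the 189 found in both, the value of the replicate-set list was below that of both replicates in 87 and above both in 1. The same counts over all clusters of the list were not computed, so none of them is read as particular to 3LHet.

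Wide clusters had the higher values. Replicate 1 gave a median of 0.76 on the log2 scale for its 48 clusters under 2 kb, 1.07 for the 137 of 2 to 5 kb, 1.36 for the 60 of 5 to 10 kb, 1.43 for the 23 of 10 to 20 kb and 1.73 for the 12 of 20 kb or more. In replicate 2 the medians of the same classes were 0.91, 1.21, 1.32, 1.53 and 1.82, for 49, 116, 56, 36 and 13 clusters. The order of the 5 classes was the same in both replicates. Spearman's rho between width and value was 0.57 over the 280 clusters of replicate 1 and 0.47 over the 270 of replicate 2, as a description, since the clusters of a list share a library and a threshold. Over all clusters of each replicate list rho was 0.62, and nothing particular to 3LHet is read from the relation.

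**Figure D2:**
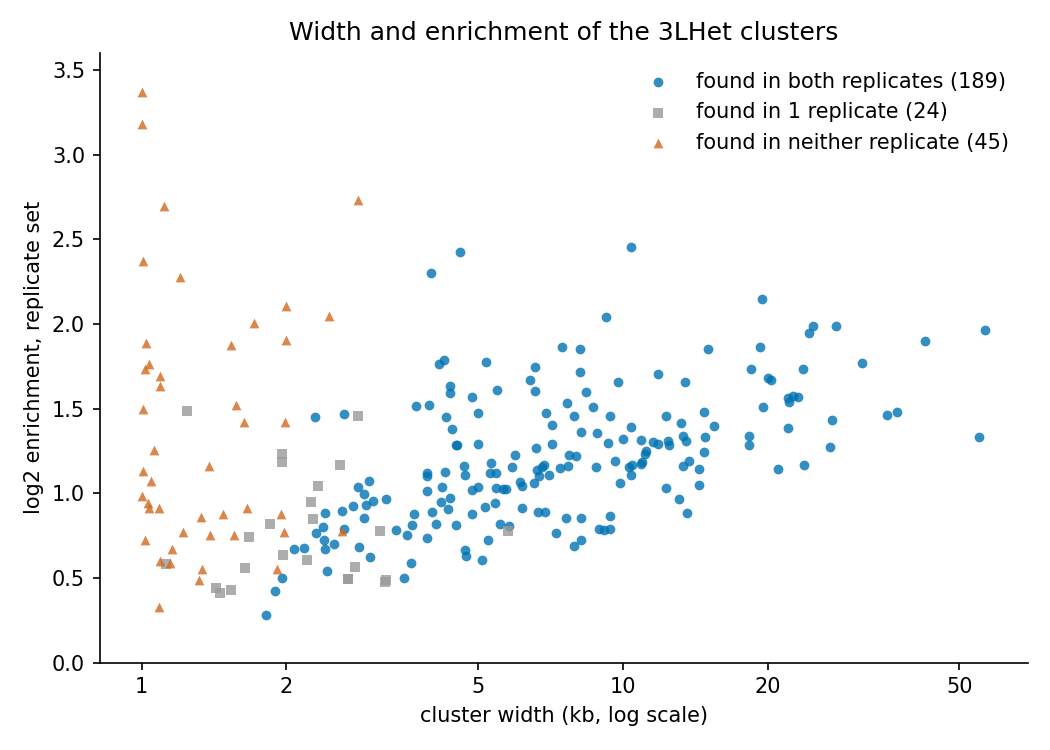
Width (log scale) and log2 enrichment of each of the 258 replicate-set clusters on 3LHet, by the replicates in which it was found. Among the 189 clusters found in both, wider ones lie higher, while the 45 found in neither are all under 3 kb wide and spread from 0.33 to 3.37.

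In the replicate-set list the relation of width and value was broken at the narrow end. Its 56 clusters under 2 kb had a median of 0.91, close to the 0.93 of the 76 clusters of 2 to 5 kb, followed by 1.15, 1.31 and 1.56 for the 66, 40 and 20 clusters of the wider classes. Of those 56 narrow clusters 42 were found in neither replicate and 3 in both, and the 3 had a median of 0.42. Among the 189 clusters found in both, rho between width and value was 0.56. All 60 clusters of 10 kb or more and 65 of the 66 of 5 to 10 kb were found in both.

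The 45 clusters found in neither replicate were 1001 to 2815 bp wide, and 24 of them were narrower than 1301 bp, the width of the narrowest cluster in either replicate list. Their median log2 enrichment was 1.13, beside 1.16 for the 189 found in both. Over all other sequences the same medians were 0.43 for the 5009 in neither and 0.69 for the 3330 in both. On 2RHet they were 1.14 for the 42 in neither and 1.23 for the 199 in both. On 3RHet they were 0.73 for the 84 in neither and 1.03 for the 170 in both. Medians that lie near each other were thus also found on 2RHet and are not particular to 3LHet. On 3LHet 9 of the 14 clusters with a log2 enrichment of 2 or more were found in neither replicate. The same share over all clusters of the list was not computed, so nothing particular to 3LHet is read from it. Over all sequences the values of clusters found in neither reached 3.96. The highest on the scaffold was 3LHet 510503 to 511503, at 3.37 over 1001 bp, and the next 3LHet 1298778 to 1299778, at 3.18 over 1001 bp. Exactly the value of the first occurred in 13 clusters of the whole list and that of the second in 6. A value shared with at least 1 other cluster of the whole list was held by 32 of the 45 (71.1%), and by 16 of the 189 found in both. The background over all clusters, of every width and support, was 42.8%. The share among all clusters found in neither was not computed, so the 71.1% is not read as particular to 3LHet. The part of read depth in the repeated values was not tested. Of the 45, 35 lay within 1 kb of another cluster, and 10 lay in stretches of 10 kb or more that were free of replicate clusters.

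The uncovered part of 3LHet was split into 257 gaps, counting those at its 2 ends, which summed to 611 kb (23.9% of the scaffold). Most gaps were short: 136 were under 1 kb, and the median was 911 bp. The 28 gaps of 5 kb or more held 349 kb, or 57.1% of the uncovered bases, and the 11 gaps of 10 kb or more held 244 kb (40.0%). Replicate 1 had 57 gaps of 5 kb or more and replicate 2 had 44, so that the number depends on the list. Of the 28 gaps 25 held no base under a cluster of either replicate, and in the other 3 at most 2.14% of the gap was under one. This follows largely from how the lists relate, since only 8.28 kb of the scaffold lay under a replicate cluster but under none of the replicate set.

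The longest gap of the replicate-set list, 3LHet 2328159 to 2374614, was 46.5 kb long. In the replicates the corresponding gaps were 53.4 and 53.2 kb long, and their edges were 284 bp apart on the left and 26 bp apart on the right. The gaps 3LHet 85523 to 112893 (27.4 kb) and 3LHet 113986 to 151313 (37.3 kb) were separated by a single cluster of 1.09 kb with a log2 value of 1.69, found in neither replicate. In the replicates this stretch was 1 gap, of 66.5 kb in replicate 1 and 65.9 kb in replicate 2, with edges 34 and 518 bp apart, and it was the longest on the scaffold in both. The remaining 2 of the 5 longest, 3LHet 2160999 to 2189729 (28.7 kb) and 3LHet 1456952 to 1480716 (23.8 kb), were also uncovered in both replicates. Their edges were 39 and 436 bp apart for the first and 15 and 1315 bp apart for the second.

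**Figure D3:**
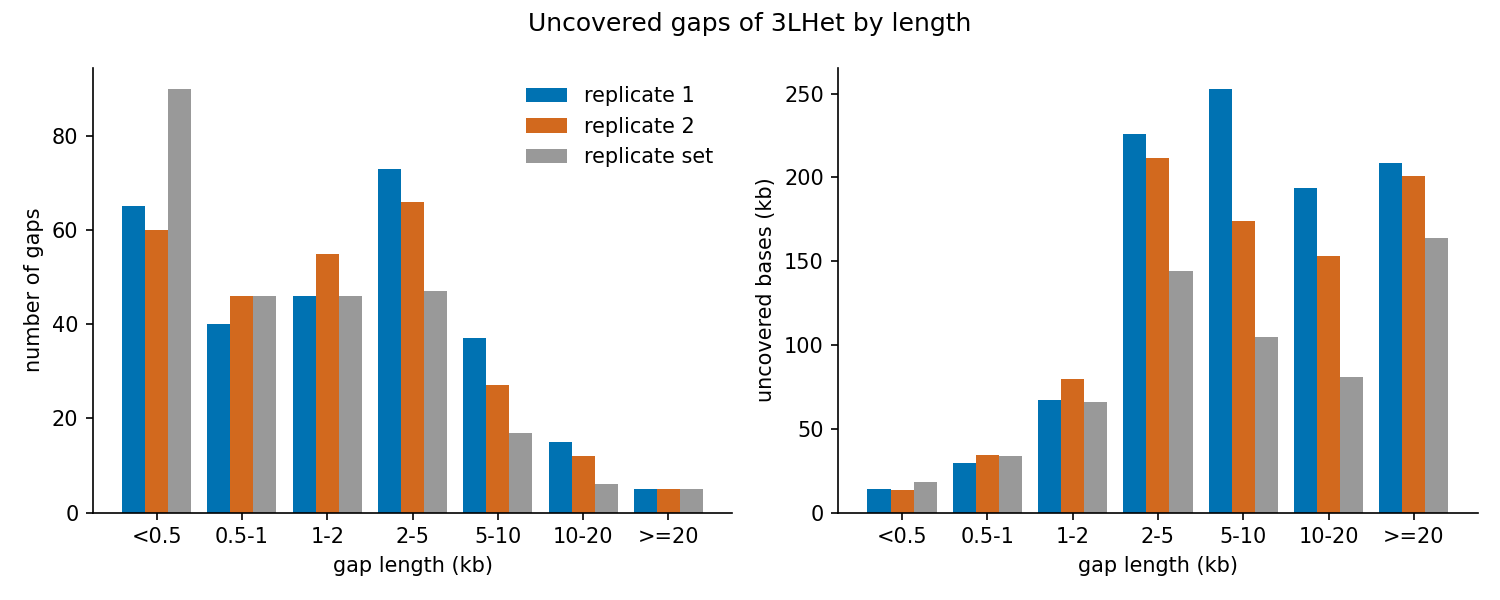
Number of gaps (left) and uncovered bases in kb (right) on 3LHet by gap length, in each of the 3 lists. Each list has 5 gaps of 20 kb or more, while the replicate lists have more gaps of 2 to 20 kb than the replicate-set list.

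Clusters of low and of high enrichment bordered the long gaps. In 8 of the 11 gaps of 10 kb or more at least 1 side cluster lay at or above the upper quartile of 1.48. The share for shorter gaps was not computed, so this is a description only. The gap from 85523 reached the quartile only through a cluster found in neither replicate, and that from 1907597 only through one found in replicate 2 only. Side values ran between 0.55 and 2.69, the highest in a cluster found in neither replicate. The gap from 113986 lay between clusters at 1.69 and 1.67, of which the first was found in neither replicate. The gap from 1456952 lay between clusters of 23.8 kb at 1.16 and 19.5 kb at 1.51. That from 2160999 had clusters at 0.79 and 1.29 on its sides, and the longest had 0.55, in a cluster found in neither replicate, and 1.12. The first 200 kb of the scaffold held 6 of the 28 gaps of 5 kb or more, which summed to 109 kb. Runs of unknown bases and repeats to which no read can be assigned were not removed from the scaffold length, and their part in these gaps was not tested.

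Some short gaps held bases that were covered in 1 replicate. Of the 134 gaps under 1 kb between 2 clusters, 43 held bases under a cluster of at least 1 replicate, and none was wholly covered in both. The median absolute difference in log2 enrichment between the clusters on the sides of a gap was 0.34 for gaps under 1 kb and 0.36 for longer ones. Spearman's rho between neighbouring clusters was 0.19 in replicate 1, over 279 pairs, 0.14 in replicate 2, over 269 pairs, and 0.29 in the replicate-set list, over 257 pairs. These values describe each list, whose clusters share a library.

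The course along the scaffold was followed in 26 windows of 100 kb, the last of 55.5 kb. Cover in the windows ranged between 25.7% and 90.6% in replicate 1 and between 31.4% and 94.8% in replicate 2, with an SD over windows of 15.9 percentage points in each. The difference within a window, replicate 2 minus replicate 1, had a median of 4.20 percentage points and ran between -1.52 and 17.0. The SD over windows was thus larger than the median difference between the replicates, but not larger than the widest one. Pearson's r between the replicates over the 26 windows was 0.97 for cover and 0.94 for the mean log2 enrichment weighted by bases, as a description.

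Cover was lowest in 3LHet 100001 to 200000, at 25.7% in replicate 1, 31.4% in replicate 2 and 34.7% in the replicate-set list. It was highest in 3LHet 2400001 to 2500000, at 90.6%, 94.8% and 98.0%. The window next to this one, 3LHet 2300001 to 2400000, holds the whole of the longest gap of the replicate-set list and was among the emptiest, at 31.7%, 35.0% and 45.3%. In 20 of the 26 windows both replicates were covered to at least 50%, and in 5 neither was. Those 5 were the first 2 windows and the windows from 1000001, 2100001 and 2300001.

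**Figure D4:**
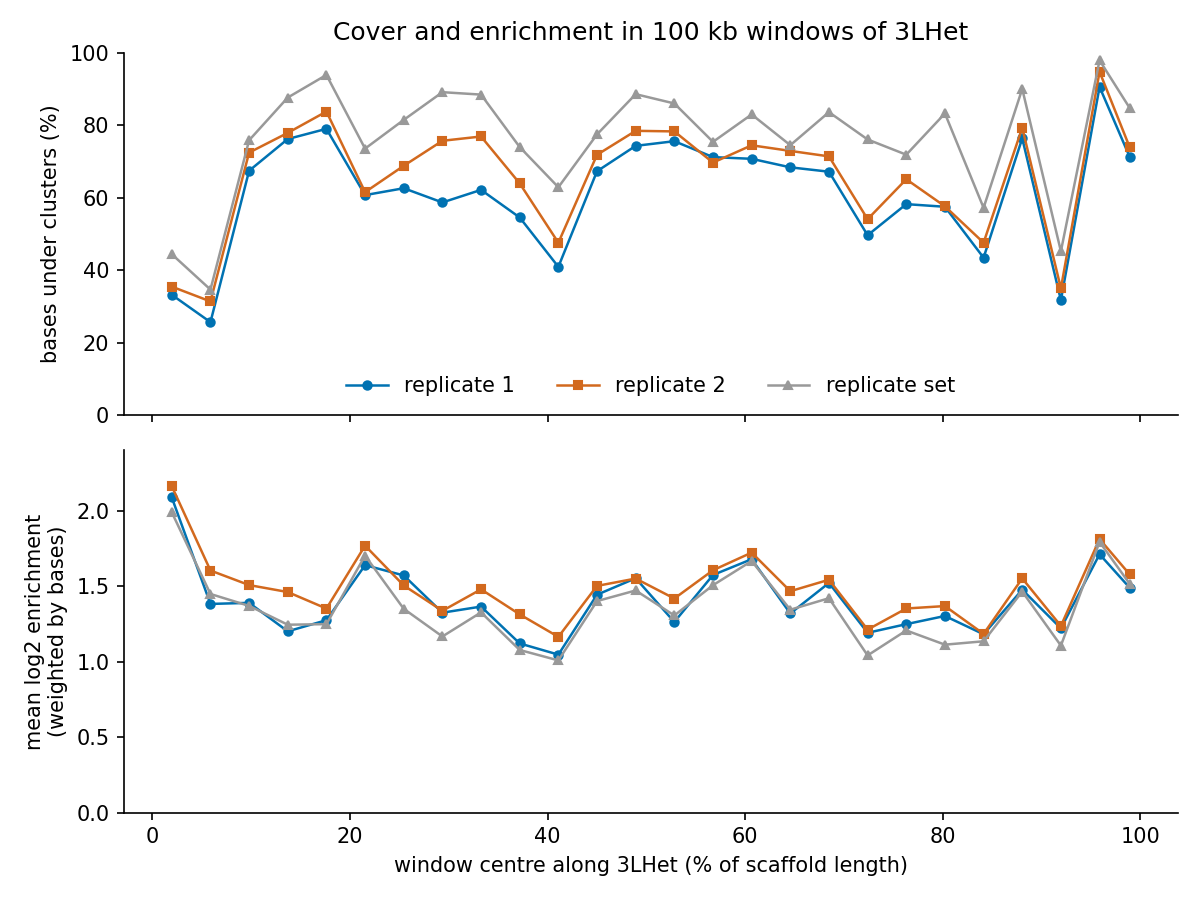
Percent of bases under clusters (top) and mean log2 enrichment weighted by bases (bottom) in the 26 windows of 3LHet, for each replicate and the replicate-set list. Both replicates trace the same dips in cover at the left end and at 41.1%, 84.1% and 92.0% of the scaffold length, and the highest enrichment lies in the first window.

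Enrichment and cover followed different courses in places. The first window, 3LHet 1 to 100000, had the highest mean log2 enrichment, at 2.09 in replicate 1 and 2.16 in replicate 2, although 33.2% and 35.5% of it was covered. The lowest mean was in 3LHet 1000001 to 1100000, at 1.05 and 1.16. Spearman's rho between cover and mean enrichment over the windows was 0.34 in replicate 1 and 0.23 in replicate 2. Peaks of enrichment also lay in 3LHet 500001 to 600000 (1.64 and 1.77), 3LHet 1500001 to 1600000 (1.68 and 1.72) and 3LHet 2400001 to 2500000 (1.71 and 1.81), with lower values between them.

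Cover in 5 equal stretches of 511 kb, going left to right, was 56.9%, 58.1%, 67.6%, 63.6% and 59.8% in replicate 1 and 60.7%, 67.3%, 70.7%, 69.2% and 62.4% in replicate 2. It was highest in the middle stretch in each replicate. In the replicate-set list it was 67.9%, 79.9%, 79.2%, 79.3% and 74.1%, with the highest value in the second stretch. In all 3 lists the 2 end stretches were below the third and the fourth. The correlation r of cover between neighbouring 100 kb windows was 0.087 in replicate 1 and 0.046 in replicate 2. No smooth course is therefore read from the stretches. In replicate 1 clusters took up 64.2% of the right 1278 kb and 58.2% of the left 1278 kb. In replicate 2 they took up 67.4% of the right and 64.7% of the left. The difference, right minus left, was 4.35 ± 2.25 percentage points (SD, n = 2), and 1.07 when the outer 852 kb on each side were compared. The mean log2 enrichment differed by 0.045 ± 0.021 (SD, n = 2) between the right and the left 1278 kb. It differed by -0.040 between the outer 852 kb, and by -0.030 when the median over clusters was compared between the 2 sides, so its sign depended on the measure. With 2 replicates the smallest two-sided p of an exact paired permutation test is 0.5, and none was therefore run, here or in the comparisons with other sequences.

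Between the replicates, 271 of the 280 clusters of replicate 1 (96.8%) were overlapped by a cluster of replicate 2, against a background of 69.4% over all clusters. Of the 270 clusters of replicate 2, 241 (89.3%) were overlapped by one of replicate 1, against 74.2%. The rule asks for 1 bp only, and the replicates covered 61.2% and 66.1% of 3LHet with clusters wider than those of the whole lists. The part of cover and width in these shares was not tested. The clusters that were not shared were narrow, with median widths of 1714 bp for the 9 of replicate 1 and 1785 bp for the 29 of replicate 2. Every cluster of either replicate on 3LHet was overlapped by the replicate-set list, where the background over all clusters was 99.1% for replicate 1 and 99% for replicate 2, so this share is near the background. Of the bases under that list 76.8% lay under both replicates, 9.73% under replicate 2 only, 3.47% under replicate 1 only and 9.99% under neither.

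Replicate 2 had the larger cover in 25 of the 26 windows and the higher mean enrichment in 24. Over all sequences its cover was the smaller one, at 18.9 Mb against 19.9 Mb in replicate 1. Replicate 2 also had the larger cover on 2RHet (58.0% against 51.9%) and 3RHet (43.4% against 40.5%). On the proximal 3 Mb of 3L it had the smaller (47.1% against 49.0%). Window counts for other sequences were not computed. Among 164 cluster pairs with a one-to-one overlap, 112 (68.3%) had the higher log2 value in replicate 2, against a background of 55.8% over all pairs. On 2RHet the share was much the same, at 114 of 169 pairs (67.5%), and on 3RHet it was 58.3%. The median difference, replicate 2 minus replicate 1, was 0.067 on 3LHet and 0.022 over all sequences. It was 0.10 on 2RHet and 0.044 on 3RHet, so the higher values of replicate 2 are not particular to 3LHet. The median absolute difference was 0.12 both on 3LHet and over all sequences. The starts of paired clusters were 189 bp apart at the median and their ends 156.5 bp. Across the 164 pairs Pearson's r between the replicate values was 0.87 and Spearman's rho 0.87.

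The largest differences were sought among the 114 clusters of the replicate set that held exactly 1 cluster of each replicate. At 3LHet 1019707 to 1024575, a cluster at 0.88 in the replicate-set list, replicate 1 had a value of 0.74 and replicate 2 one of 2.54, but the 2 replicate clusters lay side by side and shared no base. The same was so at 3LHet 1745483 to 1749126, with 1.65 in replicate 1 and 1.09 in replicate 2. At the other 3 of the 5 largest of these the replicate clusters shared bases. 3LHet 1766578 to 1771437 had 1.84 over 4703 bp in replicate 1 and 1.15 over 2222 bp in replicate 2, 3LHet 1165012 to 1168995 had 2.09 and 2.60, and 3LHet 1771847 to 1774480 had 1.24 and 1.71. Among clusters with several clusters in a replicate, 3 had differences that rank among the 5 largest of all 189. They were picked out after their values were seen, and their means weighted by bases come from partly different stretches. 3LHet 672861 to 681975 had 2.54 in replicate 1, over 39.7% of its bases, and a difference, replicate 2 minus replicate 1, of -1.04, with 97.0% of its bases covered in replicate 2. 3LHet 797914 to 807334 had 0.76 over 14.4% and 1.49 over 75.9%, and 3LHet 203897 to 210439 had 0.80 over 86.8% and 1.37 over its whole width.

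3LHet was set beside 2RHet and 3RHet, pericentric scaffolds of other arms, and beside the proximal 3 Mb of 3L, the assembled sequence of the same arm. Its cover exceeded that of 2RHet by 9.28 percentage points in replicate 1 and 8.03 in replicate 2 (8.66 ± 0.88, SD, n = 2). It exceeded that of 3RHet by 20.7 and 22.7 points (21.7 ± 1.41, SD, n = 2) and that of the proximal 3 Mb of 3L by 12.2 and 18.9 points (15.6 ± 4.73, SD, n = 2). These 3 differences were positive in both replicates and larger than their SD. Against the proximal 2 Mb of 3L in place of 3 Mb, the mean difference was 5.68 points.

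**Figure D5:**
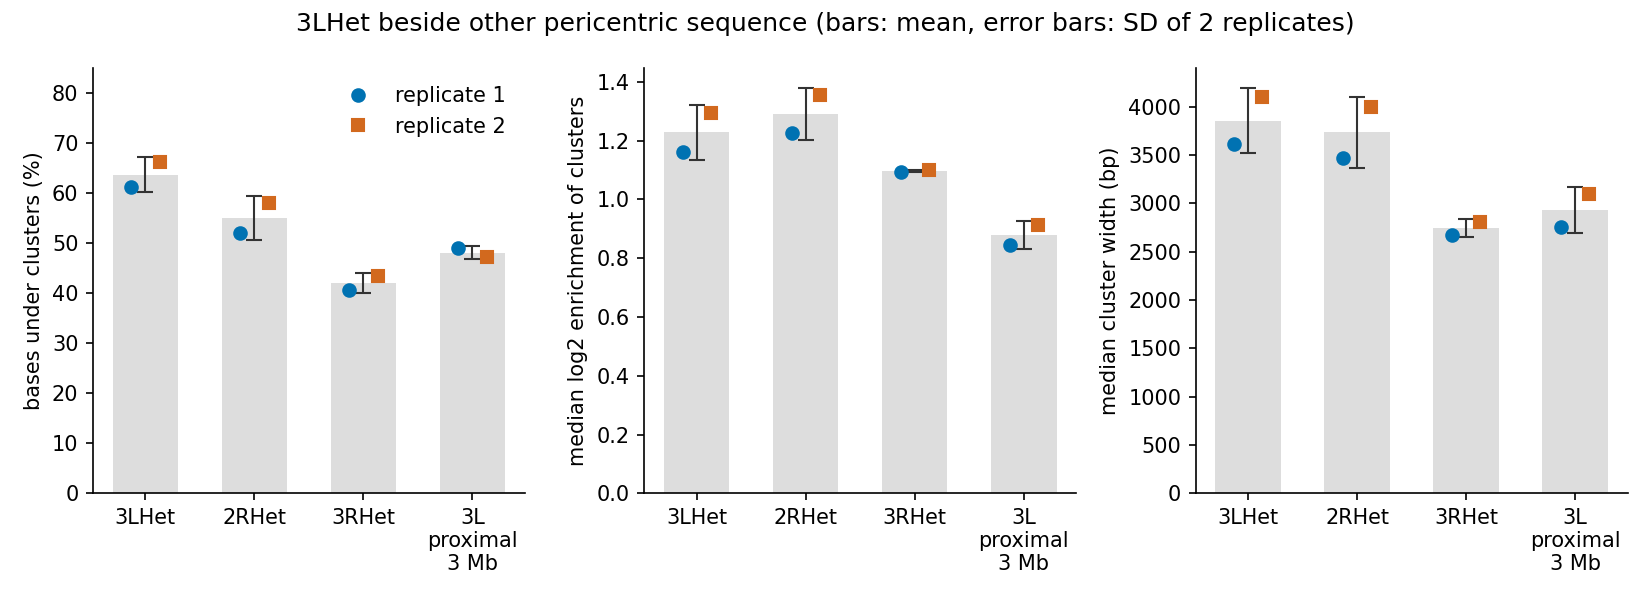
Cover (left), median log2 enrichment of clusters (middle) and median cluster width in bp (right) on 3LHet, 2RHet, 3RHet and the proximal 3 Mb of 3L; bars are means and error bars SDs of 2 replicates, with each replicate as a point. 3LHet has the largest cover of the 4, while its enrichment lies just under that of 2RHet.

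The greater cover of 3LHet was not matched by greater enrichment than on 2RHet. The median log2 value of 3LHet clusters was 1.23 ± 0.09 and that of 2RHet clusters 1.29 ± 0.09 (SD, n = 2 each), with a difference of -0.063, which was negative in both replicates. Median widths were 3857.25 ± 340 bp on 3LHet and 3735 ± 371 bp on 2RHet (SD, n = 2 each), larger on 3LHet by 144 bp in replicate 1 and 100.5 bp in replicate 2. The replicate-set list gave an excess of 482 bp. The 3LHet clusters were denser, at 108 ± 2.77 per Mb, against 92.9 ± 3.66 per Mb on 2RHet (SD, n = 2 each). The much shorter scaffold 2LHet, of 0.37 Mb, also had a higher median log2 value than 3LHet, at 1.37 ± 0.14 (SD, n = 2).

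Against 3RHet and 3L, the clusters of 3LHet were wider and more enriched. Median widths were 2744.5 ± 94.0 bp on 3RHet and 2929.25 ± 238 bp on the proximal 3 Mb of 3L (SD, n = 2 each), and the 3LHet median exceeded them by 1113 and 928 bp. Their median log2 value was higher by 0.13 ± 0.09 than that of 3RHet and by 0.35 ± 0.05 than that of 3L (SD, n = 2 each). In the replicate-set list the excess in log2 was 0.24 and 0.58 over 3RHet and 3L, and that in width 1810 and 2411 bp. Against the proximal 2 Mb of 3L the excess in the replicates was smaller, at 0.22 ± 0.05 on the log2 scale and 420 ± 91.6 bp (SD, n = 2 each). The density of clusters gave no fixed order: 3LHet had 108 ± 2.77 per Mb, 3RHet 104 ± 0.56 per Mb and the proximal 3 Mb of 3L 102.5 ± 5.42 per Mb (SD, n = 2 each), but the proximal 2 Mb of 3L had 112.5 per Mb in both replicates. In the replicate-set list 3LHet had the lowest density of these, at 101 per Mb, against 126 per Mb on 3RHet and on the proximal 3 Mb of 3L. Of the replicate-set clusters 73.3% were found in both replicates on 3LHet, against 69.3% on 2RHet, 53.6% on 3RHet and 52.1% on the proximal 3 Mb of 3L.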

How the data were processed

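The submitters' processing notes name Bowtie 0.12.7, a short-read aligner. Per the file headers, regions of significant enrichment were deposited on FlyBase release 5, as 1 list for each ChIP replicate and 1 for the replicate set. No source used here gives the caller, its threshold, its width minimum or how the replicates were combined. Each region's deposited value was read as a log2 enrichment computed by the authors. That scale was inferred: of 1628 values that recur in the replicate-set list, 60 had another exactly 1 lower (tolerance 1e-06), against 2 at the spacing natural logs would give and 0 for log10.

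Rows on 3LHet were used as listed, and none ran past the scaffold's end or was marked as depleted. Cover, overlap (1 bp), gaps and windows of 100 kb were computed with Python 3.11.15, NumPy 2.4.6 and SciPy 1.17.1, and the interval functions were tested on simulated data. Replicate values for a cluster are means weighted by shared bases. Binomial intervals cover counting error only and treat the clusters of a list as independent, although these share libraries. Depth per sample is unknown. The regions named are the 10 highest found in both replicates, the 10 widest, the 5 longest gaps, the 5 longest domains, the highest 2 in neither replicate, the first and last cluster, the windows of extreme cover and the 5 largest replicate differences among clusters holding exactly 1 cluster of each replicate; other windows, gap sides and differences were added after their values were seen. Members and lists were chosen with earlier results of these data known. Alternatives were stricter thresholds, joined clusters, width minima, other overlap rules, other lists, each replicate alone and other lengths.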

Additional observations from a re-analysis of the deposited data

How the results depend on the processing

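No paired analysis was possible because the input libraries, which share replicate numbers with the ChIP libraries, have no list analysed here. Differences between sequences or between sides of the scaffold were taken within each replicate, without a test. Of 66 alternatives, 31 left a value within the replicate SD, the binomial interval or, for counts, 1.5 times. The share of clusters found in both replicates was 92.1% for clusters of 2 kb or more and 64.0% when at least 50% of the bases had to be covered in each. Overlap of the replicates, 84.9% of the bases under either, was 83.9% in the higher-scoring 50% of each list and 85.7% with clusters joined. The median log2 enrichment was 1.29 in replicate 2 and 1.36 as a mean weighted by bases. The median width was 11014.5 bp with clusters joined, 3617 bp in replicate 1 and 4097.5 bp in replicate 2. Gaps of 5 kb or more numbered 57 and 44 in the replicates, 75 and 11 with thresholds of 2 and 10 kb, and 42, exactly 1.5 times the 28, with clusters of 2 kb or more.

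The difference in log2 enrichment between the right and left 1278 kb changed sign with the outer 852 kb (-0.040) and with medians over clusters (-0.030), and that in cover was 1.07 points with the outer 852 kb. The excess in cover was 10.6 points over 2RHet and 16.9 over 3RHet in the replicate-set list. Over the proximal 3 Mb of 3L it was 21.4 in the higher-scoring 50% of clusters, and over the proximal 2 Mb 5.68. In clusters per Mb the replicate excess was 14.7, 3.94 and 5.11 over 2RHet, 3RHet and the proximal 3 Mb of 3L. In alternatives chosen after seeing the data it was 13.7, -25.0 and -25.0 in the replicate-set list and -4.89 against the proximal 2 Mb of 3L, so its sign was not stable against 3RHet and 3L. The cause of these changes was not tested. With 1 replicate left out, cover ran between 61.2% and 66.1%, the right-minus-left differences between 0.030 and 0.059 (log2) and between 2.76 and 5.94 points (cover). The excess over 2RHet ran between 8.03 and 9.28 points, over 3RHet between 20.7 and 22.7, and over 3L between 12.2 and 18.9. Length without assembly gaps was not run, because no release 5 genome was used here. Unknown depth limits what a single narrow cluster can show.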
